A study of Mus musculus with 6 samples.

Results

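The genes described here are 10 genes of cellular iron handling in mouse macrophages: Tfrc, Slc11a1, Slc11a2, Slc40a1, Fth1, Ftl1, Hmox1, Aco1, Ireb2 and Ncoa4. They were chosen by name, each as the row of the gene table that carries its symbol, and 10 of the 35434 genes in the table are members. The samples were bone marrow-derived macrophages (BMDMs), which were grown from the femoral marrow of C57BL/6 mice with the growth factor M-CSF after red blood cells had been lysed. RNA was sequenced from 3 cultures without the drug (Ctrl) and from 3 cultures treated with ZA. ZA is zoledronic acid, a bisphosphonate that blocks farnesyl diphosphate synthase and is given against bone loss, and the study placed the RNA sequencing at 12 h after ZA. The labels give no genotype or mutant allele for either group, and the dose of ZA for these libraries is not named. Whether the cultures of a group came from separate animals is not given, so p-values measure the spread between these samples, which may be technical.

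Macrophages take up transferrin-bound iron through the transferrin receptor, and they also recover iron from the heme of engulfed red blood cells. Iron that is not used is stored in ferritin or leaves the cell through ferroportin. When iron is short, the iron regulatory proteins bind short RNA hairpins called iron-responsive elements (IREs). Binding in the 5′ untranslated region (5′ UTR) blocks translation, as for the ferritins and ferroportin, whereas binding in the 3′ UTR protects the message from decay, as for the transferrin receptor. An mRNA level therefore reads one layer of this control, and the level of ferritin protein was not measured in these libraries.

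The hairpins of 4 members are shown because they are the sequences through which iron acts on these messages. They were found in GENCODE transcripts of build GRCm38 on the transcript strand, as an unpaired C, 5 bases, the loop CAGTGN and 5 bases that pair with the first 5. The window holds 27 bases from 5′ to 3′, with the loop in capitals. The Fth1 site is in the 5′ UTR at chr19:9982733-9982759 on the + strand, that of Ftl1 in the 5′ UTR at chr7:45459780-45459806 on the - strand, and that of Slc40a1 in the 5′ UTR at chr1:45925466-45925492 on the - strand. In Tfrc the pattern matched 4 sites in the 3′ UTR on the + strand, named here A to D. They lie at chr16:32631220-32631246, chr16:32631599-32631625, chr16:32631664-32631690 and chr16:32631711-32631737.
Fth1: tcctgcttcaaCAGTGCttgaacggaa
Ftl1: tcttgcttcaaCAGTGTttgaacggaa
Slc40a1: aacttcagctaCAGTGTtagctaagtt
Tfrc site A: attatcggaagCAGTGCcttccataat
Tfrc site B: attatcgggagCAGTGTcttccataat
Tfrc site C: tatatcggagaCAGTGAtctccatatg
Tfrc site D: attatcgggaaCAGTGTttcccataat
The windows of the ferritins, Fth1 and Ftl1, have the same base at 25 of 27 positions, and those of Fth1 and Slc40a1 at 13. Among the Tfrc sites, A and B share 25 bases, while A and C share 18. The pattern was found in 31 of 21877 protein-coding genes in a 5′ UTR (0.142%), and in 129 in a 3′ UTR (0.59%). A match describes the letters only, and for Slc11a2 these letters were not in the UTR windows searched. The pattern asks for strict pairing, so hairpins of another form would be missed, in Slc11a2 and in the other members.

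The libraries were even in depth, with 41230600 to 42155808 fragments each. Values are FPKM, fragments scaled by the length of the gene and the total of the library. The annotation behind these lengths and the assignment of shared fragments are not given. Levels, ranks and ratios of different genes are therefore approximate. The cells carried macrophage genes, led by Lyz2 (lysozyme) at a mean of 22699 FPKM. The sum of 8 macrophage markers was 23609 to 27519 FPKM in Ctrl against 24497 to 28005 in ZA. Lyz2 made up most of that sum, which therefore says little about the other markers. Erythroid markers, which would bring iron genes of their own, were near 0. Their 11 genes summed to 0.439 to 2.72 FPKM in Ctrl against 0.825 to 2.02 in ZA, 4 of them (Slc4a1, Epb42, Ahsp and Tspo2) were listed at 0 in all 6 libraries, and the one above 1 FPKM was Hba-a1, an alpha-globin, with a mean of 1.76 ± 1.23 in Ctrl against 1.13 ± 0.596 in ZA (SD, n = 3). Across 9800 genes with a mean of at least 1 FPKM, limma on log2(FPKM + 1) called 36 genes at a Benjamini-Hochberg adjusted p under 0.05 (0.367%), 20 higher and 16 lower with ZA. After centring each library on its median gene, 29 were called, 11 higher and 18 lower.

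None of the 10 iron genes passed that threshold, so the members as a group are described by their values and not as changed genes. All 10 entered the test. At an unadjusted p under 0.05, 1 member was higher (Slc11a2) and 2 were lower (Tfrc and Hmox1), beside 7.50% of all genes tested that were higher and 4.85% that were lower. When the same comparison was run with voom on the recovered fragments, 2 members, Tfrc and Hmox1, were called lower. That setting called more genes in general, 132 of 9800, with 71 higher and 61 lower. In 4 members the Ctrl and ZA libraries did not overlap: 2 were higher in every ZA library (Slc11a2 and Ncoa4) and 2 lower (Tfrc and Hmox1), where 11.4% of all genes tested were higher without overlap and 6.76% lower. The median log2 fold change of the members was -0.01, and that of all genes tested was 0.01.

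The levels spanned from storage to sensing, with the same order in all 6 libraries: Fth1, Ftl1, Hmox1, Slc11a1, Ncoa4, Tfrc, Slc40a1, Aco1, Slc11a2 and Ireb2. Fth1 and Ftl1 ranked 2 and 3 among all genes by mean FPKM, and Ireb2, the lowest member, ranked 5151. Within each group the libraries of neighbours in this order did not overlap. The closest neighbours were Aco1 and Slc11a2, where in ZA the lowest Aco1 value was 18.8 FPKM and the highest Slc11a2 value was 18.7 FPKM. In Ctrl the corresponding values were 19.6 and 17.3.

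**Figure D1:**
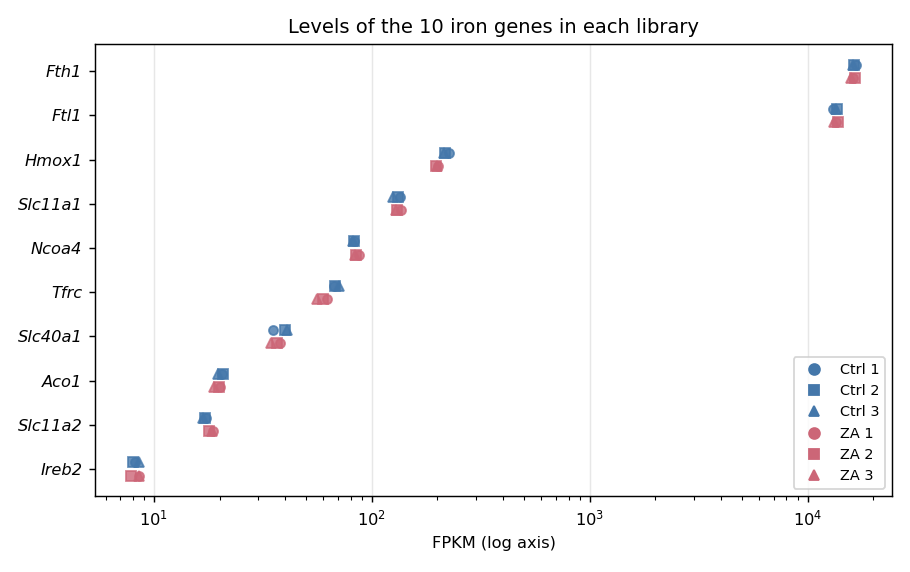
FPKM of the 10 iron genes in each library on a log axis, with Ctrl in blue, ZA in red and the replicate number given by the marker. The ferritins Fth1 and Ftl1 lie at or above 13156 FPKM in every library, and the other 8 genes lie between 7.87 FPKM (Ireb2) and 226 FPKM (Hmox1).

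Among the uptake genes, the transferrin receptor was lower and the divalent metal transporter 1 higher in every ZA library. Tfrc (ENSMUSG00000022797, chr16:32608920-32632794 in GRCm38) encodes the receptor that brings iron-loaded transferrin into the cell. Its FPKM was 67.1, 67.9 and 70.9 in Ctrl 1 to 3 and 62.4, 59.4 and 56.1 in ZA 1 to 3. The highest ZA library thus lay below the lowest Ctrl library. The mean was 68.6 ± 1.99 in Ctrl against 59.3 ± 3.19 in ZA (SD, n = 3), a difference of -13.6%, with a log2 fold change of -0.21 (SE 0.041, 95% interval -0.302 to -0.115). The unadjusted p from limma was 0.000868 and the adjusted p was 0.0938. Between 12167 and 15246 fragments per library lay behind these values, and leaving out single libraries gave log2 fold changes from -0.25 to -0.17. With voom the adjusted p of Tfrc was 0.0125.

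Slc11a2 (ENSMUSG00000023030, chr15:100387898-100425072) encodes DMT1, which moves ferrous iron out of the endosome after the receptor has delivered it. Its FPKM was 17.3, 17.1 and 16.8 in Ctrl against 18.7, 17.9 and 18.5 in ZA. All ZA libraries were above all Ctrl libraries, by a narrow margin at ZA 2. The log2 fold change was 0.10 (SE 0.030, 95% interval 0.027 to 0.167), with an unadjusted p of 0.0124 and an adjusted p of 0.258 from limma. As a description, the ratio of Tfrc to Slc11a2 FPKM was 3.87, 3.96 and 4.22 in Ctrl against 3.33, 3.33 and 3.03 in ZA. Receptor and transporter thus differed from Ctrl in opposite directions, each by a small amount.

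Slc11a1 encodes NRAMP1, a transporter of the same family that macrophages place on the phagosome membrane, where it withdraws metal ions from engulfed microbes. It was expressed above Slc11a2, by 7.42 to 7.78 times in Ctrl against 7.0 to 7.32 times in ZA. Its FPKM was 135, 132 and 125 in Ctrl against 136, 131 and 129 in ZA. The groups overlapped, and the log2 fold change was 0.01 with a 95% interval of -0.062 to 0.092.

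**Figure D2:**
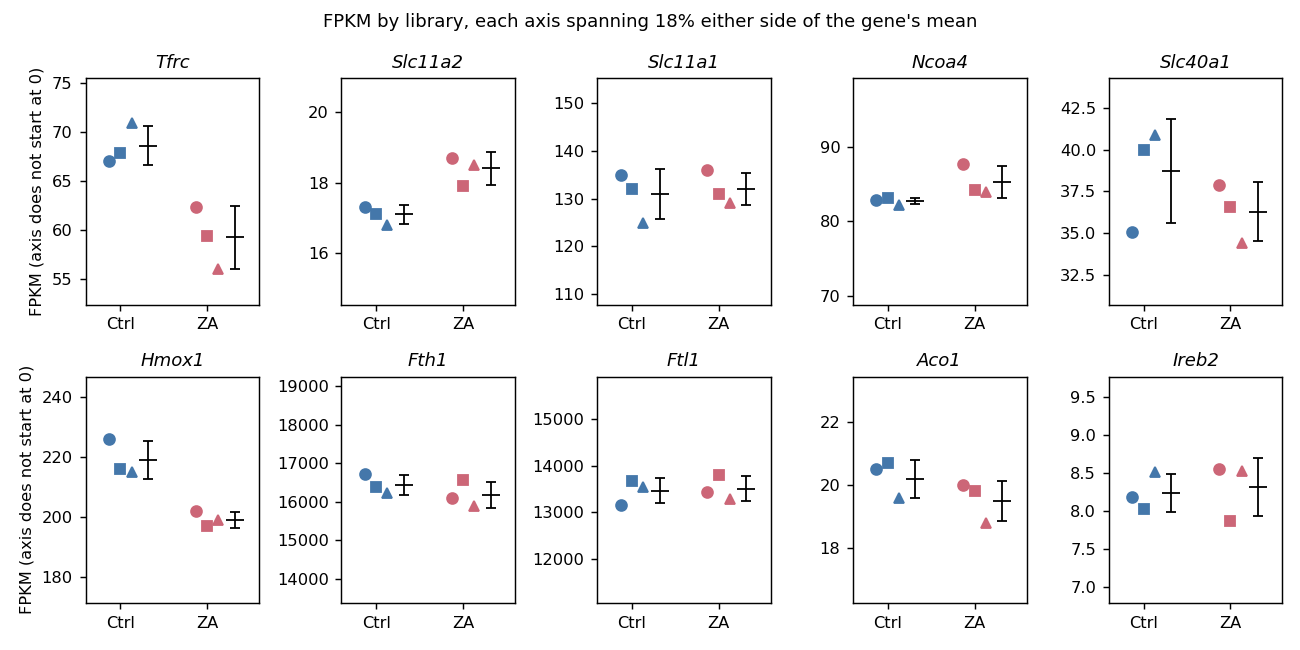
FPKM of each of the 10 iron genes by library in Ctrl (blue) and ZA (red), with the mean and SD of 3 libraries in black; each vertical axis covers the same relative range around the gene's mean and does not start at 0. Tfrc and Hmox1 are lower in every ZA library, Slc11a2 and Ncoa4 are higher, and the other 6 overlap.

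The storage genes were the most abundant members and showed the narrowest intervals. Fth1 encodes the ferritin heavy chain, which oxidises iron as it enters the shell, and Ftl1 the light chain, which helps to form the iron core. Fth1 FPKM was 16727, 16371 and 16215 in Ctrl against 16096, 16549 and 15877 in ZA. Ftl1 FPKM was 13156, 13668 and 13541 in Ctrl against 13440, 13792 and 13276 in ZA. Both genes overlapped between the groups, with a log2 fold change of -0.02 for Fth1 (95% interval -0.077 to 0.030) and of 0.01 for Ftl1 (-0.049 to 0.059). The farther ends of these 95% intervals were 0.077 in size for Fth1 and 0.059 for Ftl1. They rest on the spread between these libraries and do not exclude larger differences. Centring each library on its median moved Fth1 to -0.0357. The same centring turned the sign for Ftl1 to -0.01.

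Together the ferritin genes took 2.85%, 2.87% and 2.84% of all fragments in Ctrl against 2.82%, 2.90% and 2.78% in ZA. The ratio of Fth1 to Ftl1 was 1.27 in Ctrl 1 and 1.20 in each of the other 5 libraries. Ctrl 1 had both the highest Fth1 and the lowest Ftl1 value. The Ftl1 level is uncertain, because 36.3% of its 150-base stretches also occur in Ftl1-ps1, Ftl2-ps, Gm10252, Gm15590 or Gm47428, and how such fragments were assigned is not given in the sources used here. No 150-base stretch of Fth1 was shared with another gene.

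Ncoa4 encodes the cargo receptor that carries ferritin to the lysosome, where its iron is released (ferritinophagy). Its FPKM was 82.8, 83.1 and 82.2 in Ctrl against 87.7, 84.2 and 83.9 in ZA. The Ctrl libraries were close together, with an SD of 0.435, and every ZA library lay above them, ZA 1 farthest. The log2 fold change was 0.04 (95% interval -0.014 to 0.10), and the unadjusted p of 0.123 from limma did not pass. For Ncoa4, 14.3% of the 150-base stretches are shared with Gm6768.

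The exporter and the heme-degrading enzyme, which handle iron that leaves the recycling macrophage, both had lower means with ZA. Slc40a1 encodes ferroportin, the iron exporter. Its FPKM was 35.1, 40.0 and 40.9 in Ctrl against 37.9, 36.6 and 34.4 in ZA. Ctrl 1 lay among the ZA libraries, and the groups overlapped. The mean was 38.7 ± 3.10 in Ctrl against 36.3 ± 1.74 in ZA (SD, n = 3), with a log2 fold change of -0.09 (SE 0.059, 95% interval -0.222 to 0.047) and an unadjusted p of 0.173 from limma. The value depended on the libraries used. Without Ctrl 1 the log2 fold change was -0.15 with an unadjusted p of 0.00812 from limma, and the adjusted p was 0.307. Without any other single library the log2 fold change lay between -0.12 and -0.05, with an unadjusted p from 0.105 to 0.466.

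Hmox1 (ENSMUSG00000005413, chr8:75093621-75100589) encodes heme oxygenase 1, which opens the heme ring and frees its iron. Its FPKM was 226, 216 and 215 in Ctrl against 202, 197 and 199 in ZA. Every ZA library was below every Ctrl library, and Ctrl 1 was the highest of all. The mean was 219 ± 6.36 in Ctrl against 199 ± 2.58 in ZA (SD, n = 3), a difference of -8.98%. The log2 fold change was -0.13 (SE 0.026, 95% interval -0.194 to -0.075), with an unadjusted p of 0.00078 and an adjusted p of 0.0921 from limma. With voom its adjusted p was 0.0277, and over the single libraries left out its log2 fold change ranged from -0.15 to -0.11.

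The sensors of iron were among the 3 lowest members, with Slc11a2 between them, and overlapped between the groups. Aco1 encodes iron regulatory protein 1, which is an aconitase while it holds an iron-sulfur cluster, and Ireb2 encodes iron regulatory protein 2, which is degraded when iron is plentiful. Aco1 FPKM was 20.5, 20.7 and 19.6 in Ctrl against 20, 19.8 and 18.8 in ZA, a log2 fold change of -0.05 (95% interval -0.131 to 0.032). Ireb2 FPKM was 8.18, 8.03 and 8.51 in Ctrl against 8.55, 7.87 and 8.53 in ZA, a log2 fold change of 0.01 (95% interval -0.085 to 0.107). The Ireb2 sign turned when libraries were centred on the median. Aco1 was above Ireb2 in every library, by 2.20 to 2.58 times.

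**Figure D3:**
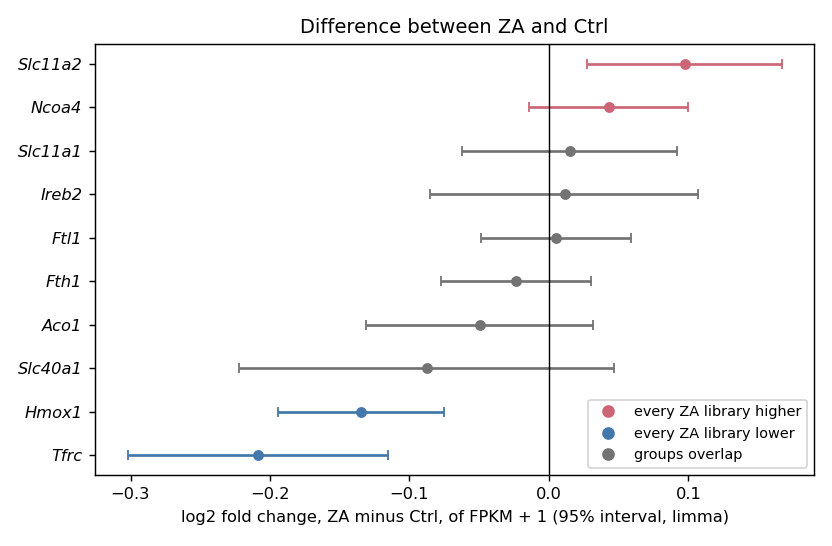
Log2 fold change of FPKM + 1, ZA minus Ctrl, of the 10 iron genes from limma, with 95% intervals (3 libraries per group). The intervals of Tfrc and Hmox1 lie below 0 and that of Slc11a2 above 0; those of the other 7 genes cross 0.

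Of the members in which the pattern found a site, Tfrc was lower in every ZA library, while Fth1, Ftl1 and Slc40a1 overlapped between the groups. Slc11a2, in which the pattern found no site, was higher in every ZA library, and hairpins of another form were not searched for. Read by role, the members with a 5′ UTR site had log2 fold changes of -0.02 (Fth1), 0.01 (Ftl1) and -0.09 (Slc40a1), and Tfrc, with the 3′ UTR sites A to D printed above, had -0.21. Binding of the regulatory proteins and protein levels were not measured.

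Beside Tfrc and Hmox1, some genes of the marker lists for other cells also had lower means with ZA. Of all genes tested, 4.85% were lower and 7.50% higher at an unadjusted p under 0.05 from limma. The summed levels of the neutrophil and progenitor, osteoclast, and stroma and endothelium lists overlapped between the groups. Of 11 neutrophil and progenitor markers, 6 were tested, all 6 had a lower mean with ZA, and 4 had an unadjusted p under 0.05. Their summed level was 35.9 to 51.2 FPKM in Ctrl against 31.9 to 37.2 in ZA, led by S100a9, a calcium-binding protein of neutrophils, with a mean of 16.4 FPKM. The 6 osteoclast markers, led by Atp6v0d2, a proton pump subunit, at a mean of 141 FPKM, summed to 184 to 203 FPKM in Ctrl against 161 to 185 in ZA. Dcstamp, Ocstamp and Calcr of this list lay under 1 FPKM in every library, and whether osteoclasts were present was not tested. Of the 3 tested, 2 were lower at an unadjusted p under 0.05. Among 8 macrophage markers 3 were higher and 0 lower at that p. The 6 stroma and endothelium markers, led by Dcn (decorin, a matrix protein) at 10.4 FPKM, summed to 21.2 to 35.8 FPKM in Ctrl against 19.7 to 26.3 in ZA, with 1 of 4 tested lower at that p. Kdr of this list was higher in every ZA library, with a mean of 3.57 FPKM in Ctrl against 3.76 in ZA. The 6 lymphocyte markers, led by Cd79b, a subunit of the B cell receptor, at 1.96 FPKM, summed to 2.40 to 3.11 and 2.10 to 2.37 FPKM, with 0 of 1 tested at that p. Their part in the values of the iron genes was not tested. In such bulk samples, fewer cells of a type and less RNA per cell cannot be told apart.

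The wider iron pathway was read from 8 lists with 88 genes, of which 73 were tested. None passed an adjusted p under 0.05 in limma, 6 were higher and 8 lower at an unadjusted p under 0.05, beside 7.50% of all genes tested that were higher and 4.85% that were lower. Their median log2 fold change was -0.00, and that of all genes tested was 0.01. With voom 1 of the 73, Trf, was called, lower in ZA, where voom called 132 of all 9800 genes, 61 of them lower. For each list below, genes are counted as higher or lower at an unadjusted p under 0.05.

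Of the other genes of iron uptake and reduction, 9 of 13 were tested, 0 were higher and 2 lower at an unadjusted p under 0.05, with a median of -0.03. Trf encodes transferrin, the iron carrier that Tfrc binds, and Steap3 encodes the ferrireductase of the same endosome. Trf FPKM was 254, 257 and 258 in Ctrl against 238, 226 and 225 in ZA. The groups did not overlap, with a log2 fold change of -0.16 (SE 0.026), an unadjusted p of 0.000276 and an adjusted p of 0.063. The adjusted p of Trf was 0.00878 with voom and 0.0451 when the test was limited to genes of at least 5 FPKM. Steap3 FPKM was 29.7, 29.9 and 30 in Ctrl against 28.9, 26.9 and 27 in ZA, a log2 fold change of -0.11 (unadjusted p 0.01, adjusted p 0.243 from limma). Trf, Tfrc and Steap3 were thus lower in every ZA library and Slc11a2 was higher. Of all genes tested, 6.76% were lower without overlap and 11.4% higher. Trf and Steap3 were the 2 genes of this list with the largest moderated statistics, and its other tested genes overlapped between the groups.

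Of the other genes of storage, chaperones and export, 4 of 8 were tested, 1 was higher and 0 lower, with a median of 0.00. Pcbp2, a poly(rC)-binding protein that passes iron to its client proteins, was 82.8 ± 1.34 FPKM in Ctrl against 87.5 ± 3.09 in ZA (SD, n = 3; log2 fold change 0.08, unadjusted p 0.0313, adjusted p 0.353 from limma). The related Pcbp1 was the most abundant of this list at 148 ± 3.15 and 147 ± 1.30 FPKM, and its groups overlapped. Hamp, which encodes the hormone hepcidin that removes ferroportin from the surface, was at 0 FPKM in every library except ZA 2, which had 0.0591, and was not tested.

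Of 9 genes of iron sensing and regulation, 8 were tested, 2 were higher and 1 (Hif1a) lower, with a median of 0.03. Nfe2l2 encodes the transcription factor Nrf2, which acts on Hmox1, Fth1 and Ftl1, and Keap1 encodes the protein that marks Nrf2 for degradation. Nfe2l2 was 138 ± 2.0 FPKM in Ctrl against 143 ± 1.13 in ZA (log2 fold change 0.05, unadjusted p 0.0416), and Keap1 was 15.7 ± 0.176 and 16.8 ± 0.68 FPKM (0.09, unadjusted p 0.037; SD, n = 3; adjusted p 0.383 and 0.369 from limma). Of 8 other Nrf2 targets, 6 were tested, 1 was higher and 0 lower, with a median of -0.01. Gclm, a subunit of the enzyme that starts glutathione synthesis, was 25.1, 25.2 and 23.2 FPKM in Ctrl against 27.8, 27.6 and 26.1 in ZA (log2 fold change 0.14, unadjusted p 0.007, adjusted p 0.209 from limma). Prdx1, a peroxiredoxin and the most abundant of this list, was 729 ± 15.0 and 714 ± 1.61 FPKM with overlapping groups. Gclm was thus higher in every ZA library while Hmox1, also a target of Nrf2, was lower in every one. Gclm was named for having the largest moderated statistic of its list, and the other tested genes of that list overlapped between the groups. Of all genes tested, 11.4% were higher without overlap and 6.76% lower.

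Of 10 genes of heme transport and breakdown, 9 were tested, 1 was higher and 1 lower, with a median of -0.01. Heme oxygenase takes its electrons from the reductase Por and makes biliverdin, and Blvrb encodes biliverdin reductase B. Por was 147, 154 and 151 FPKM in Ctrl against 146, 144 and 143 in ZA, a log2 fold change of -0.06 (unadjusted p 0.0289, adjusted p 0.346 from limma). Blvrb, the most abundant gene of the list, was 163, 175 and 165 FPKM in Ctrl against 177, 184 and 176 in ZA, a log2 fold change of 0.09 (unadjusted p 0.0209, adjusted p 0.304 from limma). Por was thus lower in every ZA library, as Hmox1 was, and Blvrb was higher in every one. Por and Blvrb were named for having the largest moderated statistics of this list, and its other tested genes overlapped between the groups. Of all genes tested, 6.76% were lower without overlap and 11.4% higher. The other biliverdin reductase of the list, Blvra, named after its values were seen, had a mean of 76.9 FPKM in Ctrl against 74.4 in ZA, with a log2 fold change of -0.05 and overlapping groups. Of 10 genes of heme synthesis, 9 were tested and 0 had an unadjusted p under 0.05 in either direction, with a median of 0.00. Alas1, the first enzyme of the path, was 45.5 ± 2.12 FPKM in Ctrl against 43.2 ± 1.79 in ZA, and Cpox, a later enzyme, was 6.38 ± 0.746 and 7.09 ± 0.319 FPKM (SD, n = 3), both overlapping.

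**Figure D4:**
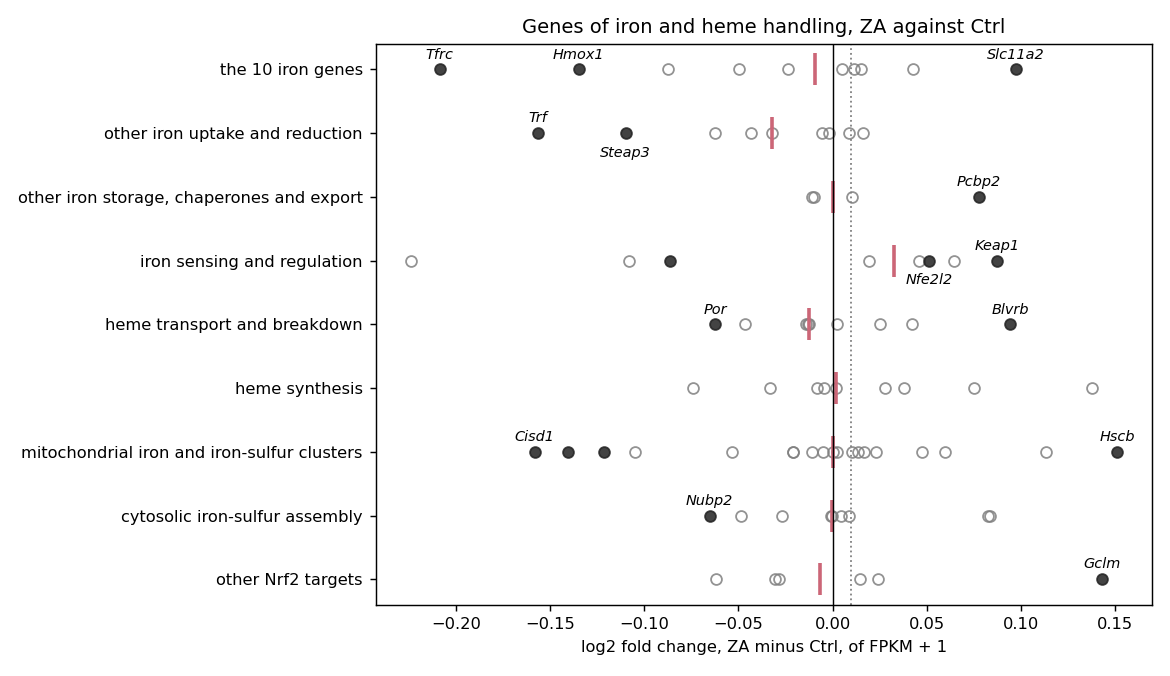
Log2 fold change of FPKM + 1, ZA minus Ctrl, of each tested gene in the 10 iron genes and 8 further lists; filled circles have an unadjusted p under 0.05 in limma, red bars are list medians and the dotted line is the median of all genes tested. The list medians lie between -0.03 and 0.03.

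Of 21 genes of mitochondrial iron and iron-sulfur clusters, 19 were tested, 1 was higher and 3 lower (Cisd1, Lyrm4 and Nfs1), with a median of 0.00. Hscb, a co-chaperone that helps hand new clusters to their targets, was 22.5, 22.4 and 23.5 FPKM in Ctrl against 25.1, 25.1 and 26.1 in ZA (log2 fold change 0.15, unadjusted p 0.00127, adjusted p 0.108 from limma). Cisd1, the outer membrane protein mitoNEET that carries an iron-sulfur cluster, was 15.7, 15.3 and 14.6 FPKM in Ctrl against 13.2, 13.4 and 13.9 in ZA (log2 fold change -0.16, unadjusted p 0.00228, adjusted p 0.128 from limma). Neither gene overlapped between the groups. Of 9 genes of cytosolic iron-sulfur assembly, all 9 were tested, 0 were higher and 1 was lower, with a median of -0.00. That gene was Nubp2, a scaffold protein, at 26.3 ± 0.452 FPKM in Ctrl against 25.1 ± 0.416 in ZA (log2 fold change -0.06, unadjusted p 0.0441, adjusted p 0.391 from limma). The targeting factors Ciao2b and Ciao2a, the latter the most abundant of the list, overlapped, at 23.2 ± 0.971 and 24.7 ± 1.09 FPKM for Ciao2b and at 40.3 ± 1.34 and 40.4 ± 1.48 for Ciao2a (SD, n = 3).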

How the data were processed

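RNA from 3 Ctrl and 3 ZA cultures was sequenced as paired-end reads. The authors deposited 1 table of FPKM values for genes. The labels list build mm9; the aligner, counting program and annotation are not given in the sources used here. The methods name a VAHTS library kit, and the labels also name a SMARTER kit, and whether strand was used is not given. All but 11 of 35434 rows had lost their separators. Readings whose values could not be whole fragments at a common gene length were dropped. A row was split where a single reading then remained (35047 rows) or where whole fragments favoured a reading by a set margin (317). The other 70 rows were left out. The 11 intact rows were restored identically, and of 5000 simulated rows 4979 were restored exactly and 0 wrongly. All 10 members had a single cut left after readings that were not whole fragments were dropped.

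The groups were compared on log2(FPKM + 1) by limma (version 3.58.1, R 4.3.3; lmFit, eBayes with a trend). The test was two-sided and covered 9800 genes whose mean was 1 FPKM or more, and p-values were adjusted after Benjamini and Hochberg. On simulated data, 98% of 200 genes changed by 1 on the log2 scale were called among 9800, with 6 unchanged genes called. The members differed by far less, the largest log2 fold change in size being -0.21 for Tfrc. Recovery of changes that small was not simulated. Genes tested had a median of 1395 fragments per library, and 3 fragments were taken as the smallest amount seen; such limits cover counting error only. Tables and plots were made in Python. The UTR search used GENCODE transcripts of GRCm38, and shared stretches were counted in the same transcripts.

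The members and lists were chosen with earlier results of these data known, and no list was tested as a set. Named were the 10 members. In each pathway list, genes with an adjusted p under 0.05, the 2 with the largest moderated statistic and the most abundant were named, and in each marker list the most abundant, with erythroid markers of at least 1 FPKM. A gene under this rule is not reported here. Blvra, Hamp, Hif1a, Lyrm4 and Nfs1 were named after their values were seen. The alternatives were a pseudocount of 0.1, no filter, a minimum of 5 FPKM, centring, quantile normalization, no trend, a replicate block, voom on recovered fragments, a stricter margin for cut rows, and leaving out each library.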

Additional observations from a re-analysis of the deposited data

How the results depend on the processing

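The count of 36 genes called of 9800 became 1 without the filter, 20 with quantile normalization, 1 without the trend and 132 with voom, and 0 to 25 when single libraries were left out: 1 without Ctrl 1, 1 without Ctrl 2, 6 without Ctrl 3, 25 without ZA 1, 0 without ZA 2 and 4 without ZA 3. Of the members, 2 were called with voom (Tfrc and Hmox1) and 0 under the other 8 alternatives or without any single library, and 3 to 4 had an unadjusted p under 0.05, the fourth being Slc40a1 without Ctrl 1. Adjusted p over the alternatives was 0.0125 to 0.283 for Tfrc and 0.0277 to 0.268 for Hmox1. In the pathway lists, 14 genes at an unadjusted p under 0.05 became 9 without the trend and 8 to 17 without single libraries (9 without Ctrl 3, 8 without ZA 2 and 8 without ZA 3); at an adjusted p, 0 became 1 with a minimum of 5 FPKM, 1 with voom and 0 to 1 without single libraries (1 without ZA 1), each time Trf. Some uncalled genes near 0 turned sign: centring gave -0.0072 for Ftl1, -0.0010 for Ireb2 and -0.0076 for Ciao2a, and quantile normalization gave -0.0024 for Ireb2 and -0.0059 for Ciao2a. Without single libraries the log2 fold change ranged from -0.017 to 0.040 for Slc11a1, -0.011 to 0.017 for Ftl1, -0.007 to 0.046 for Ireb2, -0.024 to 0.0057 for Pcbp1 and -0.015 to 0.035 for Ciao2a. The cause of these differences was not tested.

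With a replicate block, 78 genes were called, 32 of them among the 36, and 0 of the members, with an adjusted p of 0.075 for Tfrc and 0.0502 for Hmox1. For replicate numbers 1, 2 and 3, the correlation between the Ctrl and ZA deviations was 0.284, 0.0393 and 0.28. The summed macrophage, osteoclast, and stroma and endothelium markers ranked the replicate numbers alike in both groups, where the macrophage sum was mostly Lyz2. The erythroid, neutrophil and progenitor, and lymphocyte sums did not. These values do not exclude pairs. The main comparison was unpaired because the labels give a number only, and whether equal numbers mark cultures handled together is not given.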
